A study of Homo sapiens with 2 samples.

Results

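The genes described here are 10 components of bone morphogenetic protein (BMP) signalling, 6 ligands (BMP2, BMP4, BMP5, BMP6, BMP7 and BMP10), 3 secreted antagonists or modulators (GREM1, NOG and BMPER) and the intracellular inhibitor SMAD6. They are listed by name as ligands and antagonists of 1 pathway, and are 10 of the 36601 genes in the count tables. They were measured by single-cell RNA sequencing of blood-generating heart-forming organoids (BG-HFOs) on day 14 of differentiation. A BG-HFO is a cell aggregate in Matrigel that forms heart muscle, endothelium, mesenchyme and blood cells. There were 2 organoids, 32.7 and 33.10, each 1 library, both grown under the same conditions, so that every comparison is between cell lineages within these organoids and none is between treatments.

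Both organoids came from the human embryonic stem cell line hES3 NKX2.5-eGFP, 1 line with a green fluorescent reporter at the NKX2.5 locus, and no other line or genotype was analysed here. The medium carried, among other factors, CHIR99021 and IWP2, which switch WNT signalling on and then off, and bFGF, VEGF, SCF, EPO, IL-6, IL-11, IGF-1, FLT3 ligand, IL-3 and SHH. BMP4 protein itself was added at the beginning of the protocol and again from its middle part onwards, up to sampling, so all cells of both organoids had met exogenous BMP4. The libraries held 16866 and 19948 cell barcodes with 191152562 and 233818881 UMIs (unique molecular identifiers, each standing for 1 captured transcript). They shared 100 barcodes, which are 0.593% and 0.501% of their barcodes.

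BMPs are secreted dimers that bind type I receptors (ACVRL1, BMPR1A, BMPR1B and others) together with type II receptors (BMPR2, ACVR2A, ACVR2B). The receptors phosphorylate SMAD1, SMAD5 and SMAD9, which enter the nucleus and raise the transcription of targets such as ID1, ID3 and SMAD6. Noggin (NOG) and gremlin (GREM1) bind ligands outside the cell and keep them from their receptors, BMPER binds ligands and can restrain or help them, and SMAD6 blocks the pathway inside the cell as a feedback inhibitor. In the embryo BMPs are known for roles in specifying cardiac mesoderm, in forming the valves and trabeculae of the heart and in the emergence of blood from endothelium.

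Cells were assigned to lineages by marker genes that do not include any of the 10 members. A cell entered a lineage when it held at least 6 UMIs over at least 3 of that lineage's gate genes and passed no other lineage's gate. In organoid 32.7 (33.10 in parentheses), the gates gave 2086 (1987) cardiomyocyte, 2790 (2949) endothelial, 2036 (1973) stromal, 709 (1959) megakaryocyte, 663 (1853) erythroid, 530 (248) macrophage, 370 (107) granulocyte and 86 (14) endoderm cells. A further 2689 (3649) cells passed several gates and 4833 (5154) passed none. Median depth per cell differed between lineages, from 5709 and 8099 UMIs in cardiomyocytes to 11568 and 9418 in endothelial cells, 11845 and 11122 in stromal cells and 14479 and 9781 in erythroid cells.

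The labels of the lineages were checked with markers that the gates did not use, called check genes. TNNT2, MYL3 and ACTC1, structural genes of heart muscle, summed to 11225 and 9230 CPM (UMIs scaled so that each summed profile adds up to 1e6) in cardiomyocytes, 83.5 and 65.1 CPM in endothelial cells and 247 and 328 CPM in stromal cells. FLT1, PECAM1 and EMCN summed to 2828 and 2940 CPM in endothelial cells and to less than 188 CPM in cardiomyocytes and stromal cells. COL1A1, COL3A1 and ALDH1A2 summed to 3326 and 2600 CPM in stromal cells. Of these, ALDH1A2 went against the label, being at 10.0 and 4.49 CPM in stromal cells and highest in macrophages, at 147 and 138 CPM. The stromal sum was 634 and 494 CPM in cardiomyocytes, so their profile carried stromal transcripts, and its part in the results was not tested. PF4, PPBP and TMEM40 summed to 28011 and 26190 CPM in megakaryocytes. Megakaryocytes also held 4068 and 4662 CPM of the erythroid check genes. The macrophage ones were there at 806 and 859 CPM and the endothelial ones at 603 and 532 CPM. Erythroid cells held 66284 and 53207 CPM and macrophages 2699 and 2648 CPM of their own check genes. Granulocytes held 627 and 425 CPM of theirs, below 852 and 727 CPM of the macrophage ones. The part of these in the results was not tested.

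Levels below are CPM of the UMIs summed per lineage and organoid, organoid 32.7 first. Tests used edgeR's quasi-likelihood method on the summed UMIs, with Benjamini-Hochberg adjustment over all genes of a fit. A lineage was compared with the mean of the other lineages' log2 levels, in which a lineage with almost no UMIs weighs as much as a high one, so a gene can be above this mean and still be low in CPM beside 1 other lineage. Folds are log2 fold changes ± standard error, and endoderm, with 14 cells in organoid 33.10, entered no test. Folds given without 1 organoid are differences of log2 CPM with a prior count added. They are not folds of the edgeR fit, so they differ from those in method as well as in organoids. Every mean is given with its SD over n = 2 organoids. In summed UMIs, a lower share of expressing cells and less RNA per cell cannot be told apart. The share of cells with at least 1 UMI is therefore given for each member in some of the lineages. Of the groups within lineages, it is given for NOG, SMAD6 and BMPER in endothelium. It is not given for the groups of stroma and cardiomyocytes. Shares carry exact 95% binomial intervals for counting error only. They were also computed after thinning cells of at least 3000 UMIs to 3000 UMIs, with shallower cells left out of the thinned shares.

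The stretches of 250 bases before the annotated starts of 4 genes are shown as a description, and no comparison of levels used them. SMAD6 and ID1 were taken as transcripts that BMP signalling raises. BMP5 and BMP10 were taken as ligands that were highest in cardiomyocytes and in stroma. Capitals mark GGAGCC (read as GGCTCC where it lies on the other strand), a GC-rich sequence that BMP-activated SMADs can bind, and GTCTAGAC, the palindromic SMAD box. The sequences are from RefSeq (GRCh38.p14) and run 5′ to 3′ on the gene's strand.
SMAD6, chr15:66701986-66702235, plus strand: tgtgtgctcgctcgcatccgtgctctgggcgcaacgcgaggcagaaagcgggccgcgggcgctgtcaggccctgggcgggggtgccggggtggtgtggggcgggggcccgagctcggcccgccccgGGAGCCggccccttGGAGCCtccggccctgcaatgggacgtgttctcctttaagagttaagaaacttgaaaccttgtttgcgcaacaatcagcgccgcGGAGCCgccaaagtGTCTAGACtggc
ID1, chr20:31605039-31605288, plus strand: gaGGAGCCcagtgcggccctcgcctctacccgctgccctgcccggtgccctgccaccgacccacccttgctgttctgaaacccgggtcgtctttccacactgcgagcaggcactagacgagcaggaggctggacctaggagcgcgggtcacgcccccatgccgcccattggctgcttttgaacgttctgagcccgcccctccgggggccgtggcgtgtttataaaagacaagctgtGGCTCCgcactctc
BMP10, chr2:68871398-68871647, minus strand: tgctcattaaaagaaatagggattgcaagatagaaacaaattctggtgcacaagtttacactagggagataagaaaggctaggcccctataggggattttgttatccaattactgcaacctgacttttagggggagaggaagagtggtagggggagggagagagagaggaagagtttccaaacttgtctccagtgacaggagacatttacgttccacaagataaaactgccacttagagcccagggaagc
BMP5, chr6:55875591-55875840, minus strand: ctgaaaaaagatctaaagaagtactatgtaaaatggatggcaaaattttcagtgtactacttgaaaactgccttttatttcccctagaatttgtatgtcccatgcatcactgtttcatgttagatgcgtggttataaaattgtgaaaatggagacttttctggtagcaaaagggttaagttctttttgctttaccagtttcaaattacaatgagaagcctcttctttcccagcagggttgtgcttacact

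The SMAD6 stretch held 3 copies of GGAGCC and 1 of GTCTAGAC, and that of ID1 held 2 copies of GGAGCC. On both strands, GGAGCC occurred in 30.6% and GTCTAGAC in 0.182% of the 35116 stretches of this length before RefSeq gene starts. The other sequences searched, GGCGCC and CAGACA, occurred in 16.4% and 13.6% of them, and no matches overlapped in the stretches shown. The stretches of BMP5 and BMP10 held none of the 4, with 35.6% and 44.8% G and C and 1 CpG each, against 68.0% and 25 CpGs for SMAD6 and 66.0% and 19 for ID1. The median of all stretches was 58.0% and 11 CpGs, and 14.7% of them had at most 1 CpG. Such letters were not particular to SMAD6 and ID1, as both BMPER stretches held GGAGCC and GGCGCC, 1 of 3 BMP4 stretches held each of them, and 1 of 2 GREM1 stretches held GGCGCC. The stretch of BMP6 and 2 of 3 of the target SMAD7 held none of the 4. A match of letters is a description of the sequence and shows no binding. RefSeq stretches were matched for 7 of the 10 members.

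BMP2 was highest in cardiomyocytes. BMP2 (chromosome 20, 6767686 to 6780246, plus strand, GRCh38) encodes a ligand of early cardiac mesoderm and of the atrioventricular canal. It stood at 89.7 and 72.3 CPM in cardiomyocytes, with a mean of 81.0 ± 12.3 CPM. Stromal cells held 24.3 and 20.6 CPM, endothelial cells 9.32 and 8.74 CPM and megakaryocytes 3.44 and 2.51 CPM. The organoids did not overlap between any of these lineages. Endoderm cells, with 86 and 14 cells, were at 29.5 and 51.5 CPM, and the erythroid level was 0.592 and 0.558 CPM.

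Cardiomyocytes exceeded the mean log2 level of the other 6 lineages by 4.37 ± 0.14 for BMP2 (edgeR adjusted p = 4.58e-11). Each step down the order from cardiomyocyte to stromal (1.85 ± 0.20, adjusted p = 1.59e-05), stromal to endothelial (1.30 ± 0.20, adjusted p = 1.73e-04) and endothelial to megakaryocyte (1.31 ± 0.26, adjusted p = 9.53e-04) passed the edgeR test, and the steps below megakaryocytes did not. At least 1 BMP2 UMI was found in 27.7% (exact 95% interval 25.7% to 29.6%) and 31.0% (29.0% to 33.1%) of cardiomyocytes and in 0.905% and 0.432% of erythroid cells, although cardiomyocytes were the shallower cells. After thinning, the cardiomyocyte shares were 15.4% and 15.5%.

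BMP4 was shared between stroma and cardiomyocytes. BMP4 (chromosome 14, 53949736 to 53958761, minus strand) encodes the ligand that was also added to the medium, and the counts concern only the cells' own transcript. It was at 29.8 and 25.8 CPM in stromal cells, with a mean of 27.8 ± 2.83 CPM, and at 20.8 and 15.3 CPM in cardiomyocytes, with a mean of 18.0 ± 3.87 CPM. The organoids did not overlap, but the difference between both lineages missed the edgeR threshold (0.62 ± 0.28, adjusted p = 0.102). Cardiomyocytes were above endothelial cells, at 8.01 and 6.99 CPM (1.25 ± 0.29, adjusted p = 0.00242), and the 4 blood lineages were at 2.91 CPM or less. If BMP4 and the stromal check genes found in cardiomyocytes came in 1 ratio, these would carry along 5.56 and 4.71 CPM of BMP4. Both values are below the cardiomyocyte levels measured, and the part of stromal transcripts in those levels was not tested. A BMP4 UMI was seen in 24.4% and 23.3% of stromal cells, 10.2% and 10.1% of cardiomyocytes and 1.66% and 0.809% of erythroid cells, and the thinned stromal shares were 8.61% and 7.52%. An unnamed gene on the other strand overlaps BMP4, and whether counting used strand is not given in the sources used here.

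BMP5 was high in cardiomyocytes and stroma and low elsewhere. BMP5 (chromosome 6, 55753653 to 55875590, minus strand) encodes a ligand of the same subgroup as BMP6 and BMP7 that is known from myocardium and mesenchyme. Cardiomyocytes held 675 and 824 CPM, a mean of 749 ± 106 CPM, and stromal cells held 361 and 441 CPM, a mean of 401 ± 56.7 CPM. Endothelial cells were at 12.8 and 13.3 CPM, and the 4 blood lineages lay between 4.99 and 18.1 CPM. Both step sizes at the top passed the edgeR test, cardiomyocyte over stromal with 0.91 ± 0.31, adjusted p = 0.0341 and stromal over endothelial with 4.92 ± 0.36, adjusted p = 2.60e-07. From endothelial cells downward no step between neighbours passed.

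Most single cardiomyocytes carried BMP5. Its UMIs were found in 75.6% and 87.4% of cardiomyocytes and 81.5% and 87.7% of stromal cells, against 9.00% and 8.51% of endothelial cells and 4.51% and 7.30% of megakaryocytes. Among cells of at least 3000 UMIs, thinned to that depth, the shares were 70.4% and 78.3% in cardiomyocytes and 53.5% and 62.0% in stromal cells. Such cells were 1619 of 2086 and 1726 of 1987 cardiomyocytes, and 2010 of 2036 and 1954 of 1973 stromal cells. The thinned shares thus leave out more of the cardiomyocytes. Endothelial BMP5 was below the mean log2 level of the other lineages (-1.82 ± 0.28, adjusted p = 1.29e-04 by edgeR). This call was lost with 5% of each profile removed as free RNA (adjusted p = 0.968 by edgeR). That setting subtracted an assumed 5% in the proportions of all kept cells of the organoid, and free RNA was not measured.

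BMP6 was the ligand highest in a blood lineage, the megakaryocytes. BMP6 (chromosome 6, 7726099 to 7881728, plus strand) encodes the ligand best known for inducing hepcidin in the liver. Megakaryocytes held 51.3 and 66.6 CPM, a mean of 58.9 ± 10.8 CPM, while endothelial cells held 1.88 and 4.34 CPM and no other lineage passed 4.09 CPM in either organoid. Megakaryocytes exceeded endothelial cells by 4.62 ± 0.37, adjusted p = 3.16e-07 (edgeR), and no step below them passed. BMP6 UMIs were seen in 18.1% (exact 95% interval 15.3% to 21.1%) and 21.4% (19.6% to 23.3%) of megakaryocytes, 1.83% and 3.09% of endothelial cells and 0.431% and 0.805% of cardiomyocytes. The thinned megakaryocyte shares were 13.0% and 13.5%. TXNDC5, which overlaps BMP6 on the other strand, did not follow this order, being at 18.8 and 18.5 CPM in megakaryocytes and 61.3 and 58.3 CPM in stromal cells.

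BMP7 was highest in cardiomyocytes. BMP7 (chromosome 20, 57168753 to 57266641, minus strand) encodes a ligand that dimerizes with BMP2 or BMP4 as well as with itself. It was at 64.8 and 59.0 CPM in cardiomyocytes, a mean of 61.9 ± 4.10 CPM, at 18.3 and 35.4 CPM in endoderm cells and at 0.874 CPM or less in each of the other 6 lineages. Cardiomyocytes exceeded stromal cells, the next lineage tested, by 6.61 ± 0.32, adjusted p = 1.27e-08 (edgeR). The share of cells with a UMI was 28.4% and 32.0% in cardiomyocytes and 0.609% and 0.407% in endothelial cells. In endoderm it was 12 of 86 cells (14.0%, 7.42% to 23.1%) and 4 of 14 cells (28.6%, 8.39% to 58.1%), intervals too wide to order endoderm against cardiomyocytes by share. The thinned cardiomyocyte shares were 15.1% and 13.9%.

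BMP10, known as a ligand of the trabecular and atrial myocardium and of the liver, was a stromal transcript here. BMP10 (chromosome 2, 68860909 to 68871397, minus strand) was at 24.7 and 29.9 CPM in stromal cells, a mean of 27.3 ± 3.63 CPM, and at 2.72 and 2.44 CPM in cardiomyocytes. The second level was that of megakaryocytes, 2.54 and 7.03 CPM, of which 33.10 lay above and 32.7 within the cardiomyocyte range. Stromal cells exceeded megakaryocytes (2.02 ± 0.37, adjusted p = 4.65e-04), megakaryocytes exceeded cardiomyocytes (1.37 ± 0.41, adjusted p = 0.0122) and cardiomyocytes exceeded endothelial cells (1.32 ± 0.44, adjusted p = 0.0206), all by edgeR.

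A BMP10 UMI was seen in 18.4% and 22.8% of stromal cells, 1.77% and 2.06% of cardiomyocytes, 1.55% and 4.08% of megakaryocytes and 1.04% and 1.25% of endothelial cells. The cardiomyocyte level was below what the stromal check genes found in cardiomyocytes would carry along if they and BMP10 came in 1 ratio, 4.61 and 5.45 CPM, and the part of free RNA in it was not tested. In megakaryocytes the same reckoning gave 0.638 and 1.02 CPM, below the levels measured. Cardiomyocytes against the mean log2 level of the other lineages missed the threshold for BMP10 (0.55 ± 0.40, adjusted p = 0.256 by edgeR).

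**Figure D1:**
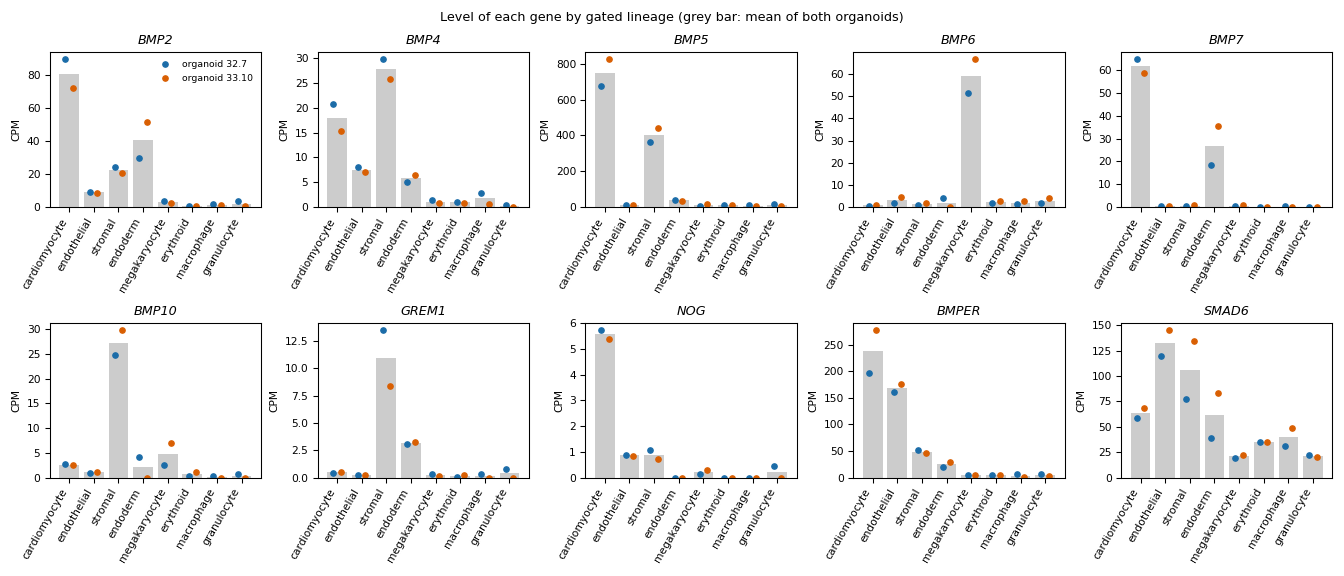
Level of each member by lineage. Grey bars are means of CPM (y axis, from 0, a scale per gene) in the 8 gated lineages (x axis), and points are organoids 32.7 (blue) and 33.10 (orange). BMP2, BMP5, BMP7, NOG and BMPER were highest in cardiomyocytes, BMP4, BMP10 and GREM1 in stromal cells, BMP6 in megakaryocytes and SMAD6 in endothelial cells, as the mean bars show.

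GREM1 belonged to the stroma. GREM1 (chromosome 15, 32718004 to 32745106, plus strand) encodes gremlin, which binds BMP2, BMP4 and BMP7. It was at 13.5 and 8.39 CPM in stromal cells, a mean of 11.0 ± 3.63 CPM, and it was at 0.768 CPM or less in the other 6 lineages tested and at 3.06 and 3.22 CPM in endoderm cells. Stromal cells exceeded cardiomyocytes, the next lineage, by 4.43 ± 0.44, adjusted p = 8.35e-06 (edgeR). A GREM1 UMI was seen in 7.42% and 5.27% of stromal cells, against 0.358% and 0.170% of endothelial cells, and single stromal cells held up to 24 and 18 UMIs. Endothelial GREM1 was below the mean log2 level of the other lineages (-1.33 ± 0.50, adjusted p = 0.0382 by edgeR), which was lost with a gate of 12 UMIs (adjusted p = 0.197) or with free RNA removed (adjusted p = 0.0504).

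NOG was sparse and highest in cardiomyocytes. NOG (chromosome 17, 56593699 to 56595611, plus strand) encodes noggin, which binds BMPs including BMP2 and BMP4. Its level was 5.73 and 5.38 CPM in cardiomyocytes, from 101 and 108 UMIs, with a mean of 5.56 ± 0.247 CPM. Stromal cells were at 1.07 and 0.715 CPM and endothelial cells at 0.872 and 0.844 CPM. No UMI was found in 663 and 1853 erythroid cells, where 3 counts would correspond to 0.254 and 0.129 CPM, nor in macrophages, where they would correspond to 0.364 and 0.706 CPM. Cardiomyocytes exceeded stromal cells by 2.63 ± 0.34, adjusted p = 1.62e-04 (edgeR). A NOG UMI was seen in 4.41% and 4.83% of cardiomyocytes, so absence from a single cell says little at this depth.

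BMPER was high in cardiomyocytes and in endothelium. BMPER (chromosome 7, 33904308 to 34156427, plus strand) encodes a secreted regulator of BMP2, BMP4 and BMP6 that is known from endothelial cells. It stood at 196 and 278 CPM in cardiomyocytes, a mean of 237 ± 57.4 CPM, and at 160.1 and 175 CPM in endothelial cells, a mean of 168 ± 10.9 CPM. The organoids did not overlap, but the difference missed the edgeR threshold (0.49 ± 0.31, adjusted p = 0.193). Stromal cells, at 51.0 and 46.6 CPM, were below endothelial cells (1.80 ± 0.32, adjusted p = 4.22e-04) and above megakaryocytes (2.86 ± 0.39, adjusted p = 3.59e-05). BMPER UMIs were seen in 45.4% and 60.8% of cardiomyocytes, 46.1% and 45.9% of endothelial cells and 4.07% and 4.48% of erythroid cells.

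SMAD6 was found in every lineage and had its highest mean in endothelium. SMAD6 (chromosome 15, 66702236 to 66782849, plus strand) starts right after the stretch shown above. It was at 120.0 and 145 CPM in endothelial cells, a mean of 133 ± 18.0 CPM, and at 77.5 and 135 CPM in stromal cells, a mean of 106 ± 40.5 CPM, with organoids that overlapped and a difference that missed the edgeR threshold (0.35 ± 0.21, adjusted p = 0.181). Stromal cells exceeded cardiomyocytes (0.71 ± 0.21, adjusted p = 0.0182), which held 59.0 and 68.7 CPM. The lowest mean was that of megakaryocytes, which held 19.0 and 22.5 CPM. Its UMIs were found in 1396 of 2790 and 1511 of 2949 endothelial cells and 71 of 709 and 218 of 1959 megakaryocytes. An unnamed gene on the same strand overlaps SMAD6, and BMP7, GREM1 and BMPER each have a partner on the other strand (BMP7-AS1, GREM1-AS1 and an unnamed gene) whose reads cannot be told from theirs if strand was not used.

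The question of which lineages are sources of these signals was put as 1 comparison for each lineage. In cardiomyocytes 6 members were higher than the mean log2 level of the other 6 lineages, where 33.8% of the 21479 genes tested were higher, and 1 was lower, where 26.8% of genes were. The 6 were BMP2, BMP4 (2.77 ± 0.24), BMP5 (4.98 ± 0.19), BMP7 (7.42 ± 0.20), NOG (5.33 ± 0.35) and BMPER (3.97 ± 0.21), with edgeR adjusted p = 5.91e-12 at the lowest and adjusted p = 6.18e-07 at the highest. BMP6 was lower (-2.48 ± 0.43, adjusted p = 2.44e-04 by edgeR), and lost this when cells passing several gates were kept in their leading lineage (adjusted p = 0.114). From a single organoid, with no test, BMPER had 4.89 without organoid 32.7, and NOG had 4.24 without 32.7 and 3.83 without 33.10. The members' median was 3.37 on the log2 scale, against 0.07 for all genes.

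In endothelial cells 5 members were higher (28.7% of all genes) and 2 lower (25.7%). BMPER (3.40 ± 0.21), NOG (2.21 ± 0.51), SMAD6 (1.51 ± 0.15), BMP4 (1.31 ± 0.26) and BMP2 (0.70 ± 0.18) were above the mean log2 level of the other lineages, with edgeR adjusted p = 2.67e-08 at the lowest and adjusted p = 0.00473 at the highest. In CPM, endothelial BMP2 (9.03 ± 0.405 CPM) and BMP4 (7.50 ± 0.717 CPM) were below both cardiomyocytes and stroma, and NOG (0.858 ± 0.0195 CPM) was below cardiomyocytes (5.56 ± 0.247 CPM). The fitted fold of NOG rests on lineages with few or no UMIs and depends on the prior count. From log2 CPM, the fold of NOG was 1.24 without organoid 32.7 and 0.92 without 33.10. Without organoid 32.7 that of BMPER was 4.04 and that of GREM1 -0.45. The BMP2 call was lost with a gate of 12 UMIs (adjusted p = 0.0585) and with leading lineages kept (adjusted p = 0.0803). The members' median was 0.25, against -0.01 for all genes.

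In stromal cells 8 members were higher (33.3% of all genes) and 1, BMP6, was lower (23.5%). GREM1 (4.92 ± 0.28) and BMP10 (4.50 ± 0.27) led, followed by BMP5 (3.91 ± 0.20), BMP4 (3.49 ± 0.22), NOG (2.26 ± 0.52), BMP2 (2.21 ± 0.16), BMPER (1.30 ± 0.24) and SMAD6 (1.10 ± 0.15), with edgeR adjusted p = 4.01e-09 at the lowest and adjusted p = 0.00347 at the highest. In CPM, stromal NOG (0.890 ± 0.247 CPM) was below cardiomyocytes (5.56 ± 0.247 CPM), and stromal BMPER (48.8 ± 3.11 CPM) was below both cardiomyocytes and endothelium, so their folds rest on the blood lineages. The fold of NOG was 1.00 without organoid 32.7 and 1.19 without 33.10. BMP7 missed the threshold (-0.29 ± 0.47, adjusted p = 0.632 by edgeR). The BMP6 call (-1.41 ± 0.36, adjusted p = 0.00455) was lost with a gate of 12 UMIs (adjusted p = 0.134). The members' median was 2.24, against 0.08 for all genes.

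The mean log2 level of the 4 blood lineages was below that of cardiomyocytes, endothelial and stromal cells for 9 members and above it for 1. Of all genes, 38.6% were lower and 30.4% higher. Not every blood lineage was below every other lineage. Megakaryocytes and endothelial cells overlapped for BMP7 (0.299 and 0.733 against 0.463 and 0.362 CPM), GREM1 (0.299 and 0.183 against 0.272 and 0.241 CPM) and BMP5. In megakaryocytes, GREM1 in both organoids and BMP7 in 32.7 did not exceed the level that 3 counts would give, so their order is uncertain. For BMP10, megakaryocytes held 2.54 and 7.03 CPM, above endothelial cells at 0.872 and 1.18 CPM. BMP6 was the member that was higher (2.04 ± 0.30, adjusted p = 4.78e-05 by edgeR), and of the blood lineages it was the megakaryocytes that held it. The 9 others ranged from -1.43 ± 0.12 for SMAD6 to -4.90 ± 0.49 for NOG, and BMP5 had -3.53 ± 0.19. The BMP7 call (-3.09 ± 0.35, adjusted p = 4.01e-06 by edgeR) was lost with free RNA removed (adjusted p = 1.00). Without organoid 32.7 the folds of BMP4, BMP10, GREM1 and BMPER, from log2 CPM, were -4.55, -2.75, -2.51 and -5.37. The edgeR folds with both organoids were -3.78, -2.02, -1.68 and -4.33. The method differs too, so the gap between these values is not that of the organoid alone. From log2 CPM, the fold of NOG was -3.24 without 32.7 and -2.97 without 33.10. The members' median was -3.31, against -0.12 for all genes.

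**Figure D2:**
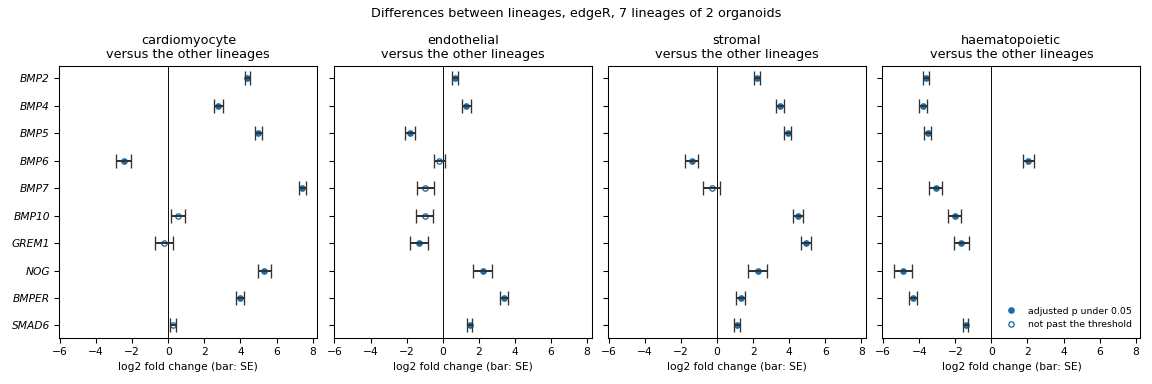
Log2 fold change of each member in 4 comparisons of lineages, on the x axis, with bars of 1 standard error from edgeR. Filled points had an adjusted p under 0.05 and open points did not. All 10 members passed in blood against the other lineages, BMP6 to the right of 0 and the other 9 to the left, and 8 of 10 were higher in stromal cells.

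The transcripts of a member were not all in gated cells. Cells that passed several gates held between 21.1% and 46.2% of a member's UMIs and cells that passed none between 1.66% and 13.2%. BMP7 was the member most concentrated in cardiomyocytes, with 58.2% and 57.8% of its UMIs there. Stromal cells held 60.5% and 45.7% of the UMIs of GREM1 and 51.8% and 39.5% of those of BMP10, and megakaryocytes held 39.9% and 34.8% of those of BMP6. Cells of several gates held more BMP2 (37.3% and 43.1%) and BMP5 (37.0% and 40.9%) than cardiomyocytes (33.0% and 31.6%, and 28.9% and 29.5%). In organoid 33.10 they also held more BMP4, BMP6, BMPER and SMAD6 than any gated lineage, with 46.2% of BMP6. Of all UMIs, cells of several gates held 56894662 and 85163802, where the libraries had 191152562 and 233818881 before the cell filter.

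**Figure D3:**
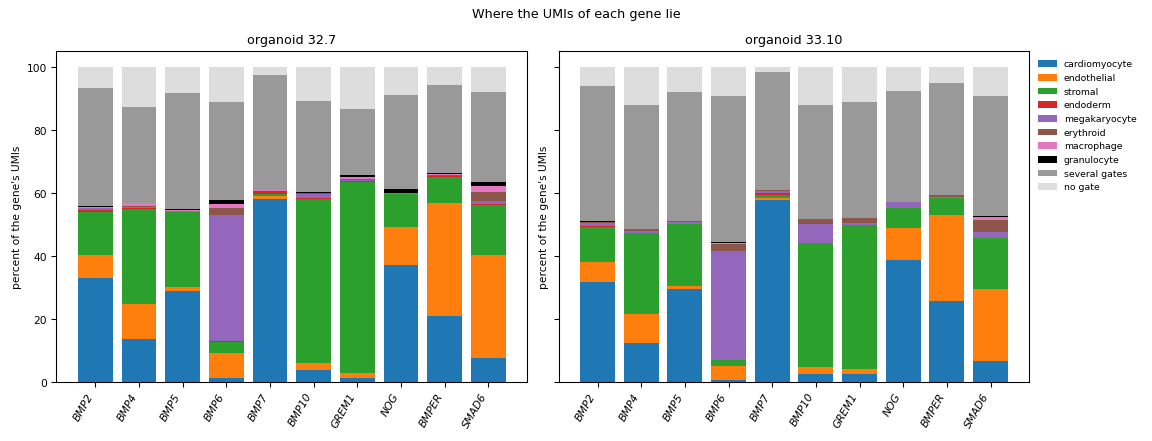
Stacked bars give the percent of each member's UMIs (y axis) in the gated lineages, in cells passing several gates and in cells passing none, for organoids 32.7 (left) and 33.10 (right). The cells outside single gates took 21.1% to 46.2% and 1.66% to 13.2%, and BMP7 had 58.2% and 57.8% of its UMIs in cardiomyocytes.

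BMPER, NOG and SMAD6 were higher in venous and BMP2 and BMP4 in arterial endothelial cells. Arterial cells were endothelial cells with at least 3 UMIs of CXCR4, DLL4, SOX17 and HEY2 and none of NR2F2, and venous cells had at least 2 UMIs of NR2F2 and at most 1 of those genes. There were 1533 and 1514 arterial cells and 331 and 366 venous cells, with median depths of 12900 and 10960.5 UMIs against 10896 and 9591.5. Of the members, 2 were higher in arterial cells (13.2% of 19481 genes) and 3 in venous cells (10.3%). GREM1 missed the threshold (-0.57 ± 1.23, adjusted p = 0.799 by edgeR).

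Markers of other cells moved with this division too. The macrophage gate genes summed to 147 and 182 CPM in venous and 10.0 and 8.81 CPM in arterial cells. The macrophage check genes summed to 38.0 and 28.7 CPM against 17.0 and 19.0 CPM, and the stromal ones to 161 and 134 CPM against 62.2 and 58.0 CPM. Endothelial check genes were lower in venous cells, at 1275 and 1463 CPM against 3400 and 3589 CPM. The endothelial gate genes went the other way, at 2610 and 2563 CPM against 2006 and 1892 CPM. The part of these markers in the differences was not tested.

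BMPER was at 439.6 and 433 CPM in venous and 87.8 and 117 CPM in arterial cells (-1.96 ± 0.30, adjusted p = 1.65e-04 by edgeR, arterial over venous). SMAD6 was at 297 and 330.3 CPM in venous and 68.6 and 98.0 CPM in arterial cells (-1.78 ± 0.22, adjusted p = 1.63e-05). In both cases the groups did not overlap. NOG was at 4.51 and 3.59 CPM in venous and 0.137 and 0.264 CPM in arterial cells (-4.13 ± 0.56, adjusted p = 8.78e-05), from 3 and 5 UMIs in arterial cells. UMIs were seen in 14 of 331 and 11 of 366 venous cells, or 4.23% and 3.01%, against 0.196% and 0.330% of arterial cells. Its fold was -2.76 without organoid 32.7 and -3.52 without 33.10.

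The ligands BMP2 and BMP4 went the other way. BMP2 was at 10.1 and 9.92 CPM in arterial and 4.99 and 5.89 CPM in venous cells (1.02 ± 0.29, adjusted p = 0.0164 by edgeR). BMP4 was at 10.5 and 8.44 CPM in arterial and 3.33 and 4.35 CPM in venous cells (1.45 ± 0.40, adjusted p = 0.0139). Both were low in endothelium as a whole. BMP6 was at 4.04 and 6.15 CPM in venous and 1.32 and 2.53 CPM in arterial cells and missed the threshold (-1.27 ± 0.47, adjusted p = 0.0614), while with the organoid as a block it passed (-1.28 ± 0.33, adjusted p = 0.00675).

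BMP10 was at 0 in both venous libraries, where 3 counts would correspond to 0.713 and 0.768 CPM, and at 0.821 and 0.791 CPM in arterial cells, so no fold is given. In shares, SMAD6 was seen in 78.2% and 75.1% of venous and 43.9% and 49.0% of arterial cells, and BMPER in 65.6% and 72.4% and 42.3% and 43.0%.

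The stroma was divided by LUM, the gene of the matrix proteoglycan lumican, and TBX18, a transcription factor of the epicardium and the venous pole. LUM-high cells had at least 5 LUM UMIs (1215 and 629 cells), and TBX18-positive cells had at least 1 TBX18 UMI and at most 1 of LUM (274 and 468 cells). Median depths were 12129 and 12557 UMIs against 12089.5 and 11757. In LUM-high cells 3 members were higher (4.47% of 19481 genes) and 1 lower (4%).

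GREM1 was at 15.0 and 13.0 CPM in LUM-high and 5.05 and 3.68 CPM in TBX18-positive cells (1.79 ± 0.41, adjusted p = 0.0100 by edgeR). BMP4 was at 33.8 and 29.5 CPM and 14.6 and 15.6 CPM (1.14 ± 0.31, adjusted p = 0.0268), and BMPER at 58.6 and 67.2 CPM and 29.5 and 27.4 CPM (1.21 ± 0.33, adjusted p = 0.0307). Each of these 3 had both LUM-high organoids above both TBX18-positive ones. SMAD6 was the member that was lower, at 64.3 and 106 CPM against 125 and 190.3 CPM (-0.84 ± 0.22, adjusted p = 0.0218), again without overlap.

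All 4 of these calls were lost in at least 1 alternative. BMP4 was lost with free RNA removed (adjusted p = 0.0621), GREM1 with DESeq2 (adjusted p = 0.0676), SMAD6 with leading lineages kept (adjusted p = 0.0877) and BMPER in all 3 of these (adjusted p from 0.0562 to 0.212). BMP10 was at 24.0 and 31.6 CPM in LUM-high and 14.9 and 26.1 CPM in TBX18-positive cells and BMP5 at 320.3 and 361 CPM and 505 and 567 CPM, neither of which passed (edgeR adjusted p = 0.589 and adjusted p = 0.321). The cardiomyocyte check genes summed to 828 and 723 CPM in TBX18-positive and 117 and 125 CPM in LUM-high cells, mostly through TNNT2, at 681 and 583 CPM in TBX18-positive cells. The endothelial gate genes summed to 194 and 180 CPM in LUM-high and 46.3 and 62.6 CPM in TBX18-positive cells, and the endothelial check genes to 195 and 225 CPM against 86.8 and 102 CPM. Their part in these differences was not tested.

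Cardiomyocytes were divided by NPPA, the gene of atrial natriuretic peptide, which marks working chamber myocardium. NPPA-high cells had at least 4 NPPA UMIs (513 and 576 cells) and NPPA-low cells had none (1002 and 904 cells). Median depths were 10378 and 12113.5 UMIs in NPPA-high and 4815 and 6521 in NPPA-low cells. In NPPA-high cells 2 members were higher (2.78% of 19481 genes) and 1 lower (4.94%).

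BMP4 was at 4.92 and 7.26 CPM in NPPA-high and 39.8 and 25.0 CPM in NPPA-low cells (-2.27 ± 0.33, adjusted p = 4.55e-04 by edgeR). BMP7 was at 92.1 and 79.9 CPM and 41.9 and 37.8 CPM (1.23 ± 0.25, adjusted p = 0.00531), and NOG at 9.36 and 9.20 CPM and 3.38 and 2.20 CPM (1.85 ± 0.40, adjusted p = 0.0105). The groups did not overlap for any of the 3, and without organoid 32.7 the fold of BMP4 was -1.65. BMP2 was at 75.0 and 56.6 CPM and 111 and 95.4 CPM and missed the threshold (-0.53 ± 0.20, adjusted p = 0.122), but passed with the organoid as a block (-0.54 ± 0.17, adjusted p = 0.0440). The block also raised the members called from 3 to 4 and the genes called from 1504 to 2426. BMP5, the ligand with the highest counts here, was at 668 and 826 CPM and 686 and 837 CPM (0.09 ± 0.31, adjusted p = 0.917).

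Markers of other cells moved with this division. The stromal check genes summed to 1059 and 842 CPM in NPPA-low and 223 and 211 CPM in NPPA-high cells, and the erythroid ones to 979 and 755 CPM against 177 and 204 CPM. The heart muscle check genes summed to 6920 and 5868 CPM in NPPA-low and 16034 and 12429 CPM in NPPA-high cells. In cardiomyocytes with at least 10 TNNT2 UMIs, a restriction chosen after seeing the data, BMP4 remained lower in NPPA-high cells (-2.33 ± 0.32, adjusted p = 7.16e-04 by edgeR) and NOG higher (1.69 ± 0.42, adjusted p = 0.0439). BMP7 then missed the threshold (0.94 ± 0.25, adjusted p = 0.0524), as it did with free RNA removed (adjusted p = 0.0635) and with leading lineages kept (adjusted p = 0.0846), where NOG was lost too (adjusted p = 0.0604). The BMP4 level of NPPA-low cells can be set beside that of the stromal lineage, 29.8 and 25.8 CPM. The part of these markers in the differences was not tested further.

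**Figure D4:**
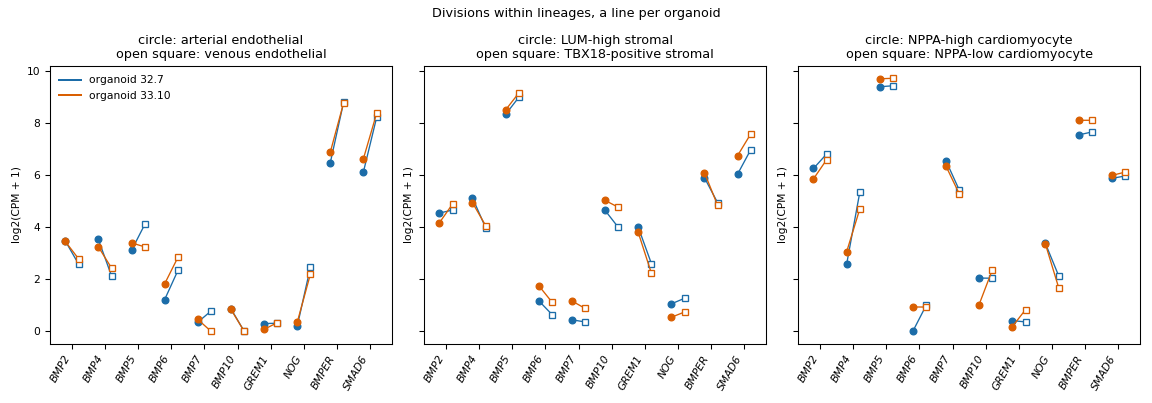
Level of each member, as log2(CPM + 1) on the y axis, in the 2 groups of endothelial (left), stromal (middle) and cardiomyocyte (right) cells, with a line per organoid joining the first group (circle) to the second (open square). Venous cells held 440 and 433 CPM of BMPER against 87.8 and 117 in arterial cells, and NPPA-low cells held 39.8 and 25.0 CPM of BMP4 against 4.92 and 7.26 in NPPA-high cells.

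The rest of the pathway was taken as lists of 64 further genes, 11 receptors and coreceptors, 10 SMADs and intracellular regulators, 12 targets, 12 other ligands and 19 other extracellular antagonists and proteases. Their counts stand beside the shares of all genes that were higher and lower, which were 33.8% and 26.8% in cardiomyocytes, 28.7% and 25.7% in endothelial cells, 33.3% and 23.5% in stromal cells and 30.4% and 38.6% in blood. Endothelial cells were higher in 7 of 11 receptors and lower in 1, led by ACVRL1, the endothelial receptor of BMP9 and BMP10 (3.59 ± 0.14, adjusted p = 2.79e-10 by edgeR), and its coreceptor ENG (3.56 ± 0.12). RGMB and BMPR2 followed with 2.63 ± 0.19 and 1.17 ± 0.08. ENG was at 326 and 292 CPM in endothelial, 31.7 and 41.7 CPM in stromal and 86.4 and 93.6 CPM in macrophage cells.

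Stromal cells were higher in 9 of 11 receptors, led by BMPR1B (3.82 ± 0.30, adjusted p = 2.12e-07 by edgeR) and the coreceptor RGMA (2.70 ± 0.49). BMPR1B was at 14.5 and 19.4 CPM in stromal cells and at 2.72 and 2.94 CPM in cardiomyocytes. Cardiomyocytes were higher in 7 and lower in 2, and the coreceptors RGMA, RGMB and NEO1 had the highest folds (1.99 ± 0.57, 1.22 ± 0.22 and 1.20 ± 0.19), while ENG was lower (-1.10 ± 0.16). In CPM, these coreceptors were lower in cardiomyocytes than in stromal cells. RGMA was at 0.624 and 0.548 CPM against 1.03 and 0.755 CPM, and RGMB at 4.37 and 3.84 CPM against 6.39 and 4.73 CPM. NEO1 was at 61.5 and 71.5 CPM against 81.9 and 74.0 CPM. The blood lineages were lower in 10 of 11 and higher in none, with RGMB (-2.79 ± 0.20) and BMPR1B (-2.15 ± 0.36) lowest.

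Of the 10 intracellular components, cardiomyocytes were higher in 6 and lower in 1, endothelial cells in 6 and 2, and stromal cells in 6 and 0, and blood was lower in 7 and higher in 0. SMAD9, one of the signal-carrying SMADs, had 3.43 ± 0.10 in cardiomyocytes, where it was at 59.8 and 62.5 CPM, and -3.79 ± 0.10 in blood. BAMBI, a decoy receptor that BMP signalling induces, had 3.07 ± 0.13 in stromal cells and 2.67 ± 0.13 in cardiomyocytes. PMEPA1 and SMURF2, which restrain SMAD signalling, led in endothelial cells (3.44 ± 0.18 and 2.25 ± 0.07).

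Of the 12 targets, cardiomyocytes were higher in 8 and lower in 3, endothelial cells in 5 and 4, stromal cells in 10 and 0, and blood in 2 and 10. Endothelial cells were led by HEY1 (3.24 ± 0.10), ID1 (2.78 ± 0.13, adjusted p = 1.27e-09 by edgeR) and ID3 (2.67 ± 0.10, adjusted p = 1.46e-10). ID1, whose upstream stretch is shown above, was at 1827 and 1570 CPM in endothelial cells, 684 and 961 CPM in macrophages, 392 and 428 CPM in stromal cells, 228 and 165 CPM in cardiomyocytes and 86.6 and 65.4 CPM in megakaryocytes. Endothelial cells had the highest mean ID1 and SMAD6 levels of the gated lineages. For SMAD6 the difference from stromal cells missed the edgeR threshold (adjusted p = 0.181), and the organoids overlapped. ID2 was at 73.0 and 68.3 CPM in endothelial cells, against 233 and 328 CPM in macrophages. ID4 was at 8.44 and 9.04 CPM, against 129 and 122 CPM in cardiomyocytes. None of the 6 ligands was highest in endothelial cells, and a link between ligand and target levels was not tested. Cardiomyocytes were led by TBX20 (3.95 ± 0.19), ID4 (3.64 ± 0.18), MSX2 (3.10 ± 0.28) and TBX2 (2.60 ± 0.24), transcription factor genes of the heart tube and its valve-forming part. In stromal cells TBX2 (3.90 ± 0.22), MSX2 (3.41 ± 0.27), ID4 (3.25 ± 0.18) and HEY1 (2.98 ± 0.10) led.

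Of the 18 other antagonists and proteases tested, 14 were higher and 1 lower in stromal cells, 10 and 1 in cardiomyocytes, 6 and 7 in endothelial cells and 1 and 14 in blood. Endothelial cells were led by SOST, the gene of sclerostin (6.48 ± 0.17, adjusted p = 2.81e-11 by edgeR), and by TLL1, a protease that cleaves chordin (6.40 ± 0.35), and were lower in FST (-3.72 ± 0.76), the gene of follistatin. Of the 11 other ligands tested, 6 were higher and 0 lower in cardiomyocytes, 4 and 1 in endothelial cells, 7 and 1 in stromal cells and 2 and 9 in blood. GDF2, the gene of BMP9, was at 9.14 and 9.72 CPM in cardiomyocytes and at 0.437 CPM or less in the other lineages, and GDF10 was higher in stromal cells (4.04 ± 0.29).

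**Figure D5:**
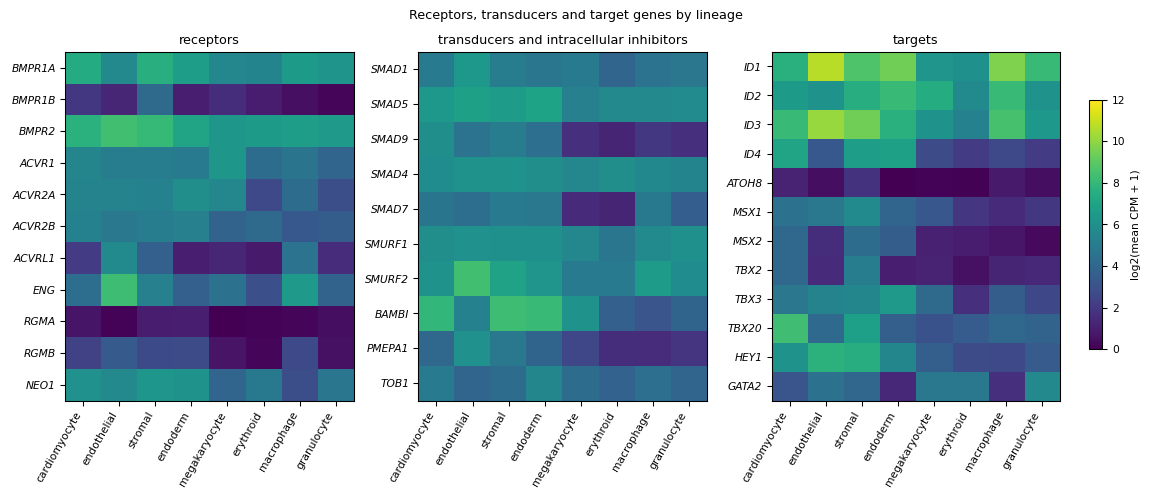
Heat map of the mean level over both organoids, as log2(mean CPM + 1) in colour, of the 11 receptors and coreceptors (left), 10 intracellular components (middle) and 12 targets (right) in the 8 gated lineages (columns). The brightest cell of the target panel is ID1 in endothelial cells, at 1827 and 1570 CPM, and ACVRL1 and ENG are brightest in the endothelial column.

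Within the endothelium, the venous cells that held more BMPER, NOG and SMAD6 also held more SOST, at 403 and 306 CPM against 5.06 and 2.11 CPM in arterial cells (-6.45 ± 0.36, adjusted p = 3.67e-09 by edgeR), and more TLL1 (-3.76 ± 0.49). The receptor gene BMPR1A was at 109.5 and 127 CPM in venous and 24.0 and 29.4 CPM in arterial cells (-2.01 ± 0.16, adjusted p = 1.55e-07), and SMAD7, the second inhibitory SMAD, at 52.3 and 55.6 CPM and 9.81 and 12.4 CPM (-2.14 ± 0.15, adjusted p = 3.12e-08). SMAD1 went the other way, at 98.8 and 102 CPM in arterial and 43.2 and 41.2 CPM in venous cells (1.39 ± 0.16), as did HEY1 (2.95 ± 0.17), a Notch and BMP target of arteries. In all, of 15 other antagonists and proteases tested, 0 were higher and 2 lower in arterial cells. Of 9 other ligands tested the counts were 1 and 2, and of 11 receptors 0 and 2. Of 12 targets they were 4 and 4, and of 10 intracellular components 2 and 3. Of all genes, 13.2% and 10.3% were higher and lower.

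In the stroma, of 15 other antagonists and proteases tested, 2 were higher and 1 lower in LUM-high cells. Of 9 other ligands tested the counts were 1 and 1, and of 11 receptors none passed. Of 12 targets they were 3 and 2, and of 10 intracellular components 2 and 0. Of all genes, 4.47% and 4% were higher and lower. GDF10 (-2.47 ± 0.37) and ID4 (-2.04 ± 0.26) were lower in LUM-high cells. In cardiomyocytes, of 15 other antagonists and proteases tested, 1 was higher and 3 lower in NPPA-high cells. Of 9 other ligands tested the counts were 0 and 1, and of 11 receptors 0 and 2. Of 12 targets they were 0 and 4, and of 10 intracellular components 1 and 0. Of all genes, 2.78% and 4.94% were higher and lower. GDF6 (-2.66 ± 0.42) and BMPR1B (-2.14 ± 0.62) were lower with BMP4, and SMAD9 was higher (0.57 ± 0.14).

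The genes whose levels were most like each member were sought over the 16 profiles of 8 lineages in 2 organoids, by Pearson's r of log2(CPM + 1), among genes at 10 CPM or more in at least 1 lineage of both organoids. BMP5 was most like FGF10 (r = 0.982) and TGFB2 (0.981), both secreted factor genes. BMP10 was most like BMPR1B (0.959) and KCND2 (0.936), and SMAD6 like ZNF720 (0.960) and the receptor gene BMPR2 (0.953). For GREM1 they were CRISPLD2 (0.952) and ITGA11 (0.947), for BMP7 WNK2 (0.984) and RTN4RL1 (0.980) and for BMP6 LINC02284 (0.958) and RUFY1 (0.954). BMP2 was most like ROR1 (0.970) and MIR1915HG (0.969), BMP4 like WDR86 (0.961) and FIS1 (0.960), NOG like RBM24 (0.970) and C15orf41 (0.965), and BMPER like MARK1 (0.965) and HMCN1 (0.964). The profiles share libraries, and these values are a description.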

How the data were processed

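Gene counts of 2 single-cell libraries, 1 per BG-HFO, were analysed. The deposited files hold UMI counts per gene and cell barcode, which the authors made with Cell Ranger 7.0.0 against GRCh38, intronic reads included, before their removal of free RNA and their cell filter. Whether counting used strand is not given in the sources used here. Cells with 50 to 11000 genes and under 30% mitochondrial UMIs were kept (16792 and 19893 cells). No doublet caller was run, and cells that passed several lineage gates were left out. Among these, doublets and single cells with transcripts of several lineages, such as progenitors, were not told apart. Both the megakaryocyte and the erythroid gate were passed by 296 and 1142 cells. Median depth was 17174 and 19392 UMIs in cells of several gates and 2273 and 3116.5 in cells of none. The gates are fixed UMI counts, so passing them depends on depth.

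UMIs were summed per lineage and organoid and tested with edgeR 4.0.16 in R 4.3.3 (TMM, filterByExpr, quasi-likelihood, Benjamini-Hochberg at 0.05, no block), in 1 fit of 7 lineages and 1 of 6 sublineages with the 4 blood lineages. The planned comparison of endoderm with the other lineages was left out, since a lineage needed 20 cells in each organoid, and the other contrasts therefore set 1 lineage against 6. Standard errors are the absolute log2 fold change divided by the square root of F. Both organoids were cultured independently, so n = 2, and both came from 1 line. All lineages of a library come from the same organoid, which pairs them: over 21 pairs of lineages and 9927 genes, the deviations from the lineage means correlated with r from 0.05 to 0.57 (median 0.27).

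CPM levels have a floor of 3 counts, and intervals and floors cover counting error only. Alternatives were DESeq2 1.42.0, no filter on low counts, the organoid as a block, a gate of 12 UMIs, cells of several gates kept in a lineage that led 5 times, cells of at least 3000 UMIs, 5% free RNA removed and each organoid left out. The 5% was assumed, and its profile was that of all kept cells of the organoid. In tests on simulated data for the cardiomyocyte comparison (20358 genes), 69 of 100 genes changed by 1 on the log2 scale and 100 of 100 changed by 2 were recovered, and 5.06% of calls were unchanged genes. For arterial against venous cells (18022 genes), the figures were 29 of 100, 99 of 100 and 0.775%. These figures hold for data in which only 100 genes changed by 1 and 100 by 2. The changed genes were drawn from those above a floor of expected counts, which leaves out sparse genes such as NOG and GREM1. All genes had the same dispersion, and no effect of the organoid was put in. In the same comparisons of the organoids, 13007 of 21479 and 4560 of 19481 genes were called. The share of unchanged genes among those calls was not tested.

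All members are named. Of each pathway list, the text gives values for up to 4 genes per comparison, those with the largest change among those that passed, levels of such a gene in other lineages, and the 2 genes most like each member. Some items are not reported here. The members, markers and lists were chosen with earlier results of these data known.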

Additional observations from a re-analysis of the deposited data

How the results depend on the processing

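Of the 45 member changes called, 33 were called under every alternative tested and 0 reversed. The lineage with the highest mean stayed the same for all 10 members in every alternative. With 5% free RNA removed, DESeq2 or leading lineages kept, the members called between LUM-high and TBX18-positive cells fell from 4 to 2. Between NPPA-high and NPPA-low cells, 1504 genes were called, against 960 with a gate of 12 UMIs, 238 with leading lineages kept, 2390 with no filter, 2426 with the replicate block and 557 with at least 10 TNNT2 UMIs, an alternative chosen after seeing the data. With leading lineages kept, 1 member was called there in place of 3. The paired fit, with the replicate block, changed no call of a member other than BMP6 between arterial and venous and BMP2 between NPPA-high and NPPA-low cells. The causes were not tested.

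Changes of sign all concerned values that had not passed. With a gate of 12 UMIs, the LUM-high change was -0.32 for BMP6, -0.74 for BMP7 and 0.60 for NOG, the arterial one 0.033 for BMP7, the cardiomyocyte one 0.15 for GREM1, the stromal one 0.59 for BMP7 and the NPPA-high one 0.65 for BMP6. With leading lineages kept, the NPPA-high change was -0.084 for BMP5, 0.40 for BMP6 and -0.045 for BMPER, and the cardiomyocyte one 0.43 for GREM1. With at least 10 TNNT2 UMIs, the NPPA-high change was -0.042 for BMP5, 0.90 for BMP6 and -0.048 for BMPER. With free RNA removed, it was -0.0028 for SMAD6, the endothelial one 0.027 for BMP6 and the stromal one 1.75 for BMP7. With no filter, the NPPA-high change of SMAD6 was -0.0087.

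With DESeq2, 45.0% of the genes called between arterial and venous cells were higher in arterial cells, against 56.2% with edgeR. The median log2 fold change of all genes in the endothelial comparison was -0.22, against -0.01. The sets of genes differed too, as DESeq2 was run without the filter on low counts. It covered 32145 genes against 19481 in the first comparison and 32523 against 21479 in the second. Leaving out 1 organoid leaves no residual degrees of freedom, so those values carry no test. They were calculated from log2 CPM with a prior count and not from the edgeR fit. The endoderm comparison was not run. Few cells held a UMI of NOG or GREM1, which limits what can be shown of them at this depth.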

Other observations

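Cells with and without a UMI of a member were compared within a lineage as a description, with no test and with genes chosen after their values were seen. In all of these the cells with a UMI were the deeper ones. Megakaryocytes with BMP6, 128 and 420 cells of median 7808 and 7183.5 UMIs against 6988 and 6732, held 598 and 413 CPM of SLC40A1, the iron exporter gene, against 92.8 and 109 CPM in megakaryocytes without it. They held 266 and 212 CPM of KDR, a VEGF receptor gene, against 45.8 and 62.5 CPM. KDR is also an endothelial gate gene, and cells that passed the endothelial gate as well had been left out of the megakaryocytes. They held 17.7 and 9.36 CPM of the proliferation gene TOP2A, against 101 and 78.8 CPM.

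Endothelial cells with NOG, 27 and 23 cells, held 587 and 309 CPM of SOST, against 74.0 and 62.5 CPM in those without. Stromal cells with GREM1, 151 and 104 cells, held 357 and 156 CPM of NGFR, the gene of a neurotrophin receptor, against 69.7 and 37.7 CPM. Megakaryocytes with BMP10, 11 and 80 cells, held 228 and 202 CPM of BMP6, against 46.5 and 59.7 CPM in those without.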
